A study of Homo sapiens with 4 samples.

Results

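Proteasome subunit genes are the genes that encode the parts of the proteasome, the protease that degrades ubiquitin-tagged proteins, together with its dedicated activators and assembly chaperones. They were taken by their symbol alone (PSMA, PSMB, PSMC, PSMD, PSME, PSMF or PSMG followed by a number), which found 48 of the 18398 genes in each library. RNA had been sequenced from the human cell lines Huh1 and Huh7, both established from hepatocellular carcinoma, 48 h after transfection with 15 nM of a small interfering RNA (siRNA). The groups were Huh1 with NCsiRNA (negative control siRNA), Huh1 with CDCA8-1siRNA, Huh7 with NCsiRNA and Huh7 with CDCA8-1siRNA, and each of these 4 groups held 1 library. CDCA8-1siRNA targets CDCA8, which encodes a subunit of the chromosomal passenger complex that works in mitosis. Every library came from transfected cells, and nothing in the labels describes a second culture of any group, so the spread between cultures of one group was not measured.

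The proteasome has a barrel-shaped core particle, made of outer alpha rings that gate the entry and inner beta rings that hold the proteolytic sites. A regulatory particle sits on the core, and its base of ATPases unfolds a substrate while its lid removes the ubiquitin chain. Cells exposed to interferon build new cores in which the constitutive catalytic subunits PSMB5, PSMB6 and PSMB7 give way to PSMB8, PSMB9 and PSMB10, which form the immunoproteasome, while dedicated chaperones such as the PSMG proteins put the rings together. When proteasome activity falls short, the transcription factor NFE2L1 (NRF1) is known to raise many of these genes at once through antioxidant response elements in their promoters.

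The windows just upstream of the genes that the comparisons below turn on were read from RefSeq (GRCh38.p14), as the 250 bases before a start, 5' to 3' on the strand of the gene. The first 4 belong to the genes that were lower with CDCA8-1siRNA, at chr21:39183452-39183701 (minus strand) for PSMG1, chr11:14520387-14520636 (minus) for PSMA1, chr14:58244593-58244842 (plus) for PSMA3 and chr17:63827181-63827430 (plus) for PSMC5. The last belongs to the immunoproteasome gene PSMB9, at chr6:32853942-32854191 (plus), whose level differed between the cell lines. Capitals mark matches to CCAAT, the CCAAT box bound by NF-Y, or to TGACNNNGC, the core of the antioxidant response element, on either strand.
PSMG1: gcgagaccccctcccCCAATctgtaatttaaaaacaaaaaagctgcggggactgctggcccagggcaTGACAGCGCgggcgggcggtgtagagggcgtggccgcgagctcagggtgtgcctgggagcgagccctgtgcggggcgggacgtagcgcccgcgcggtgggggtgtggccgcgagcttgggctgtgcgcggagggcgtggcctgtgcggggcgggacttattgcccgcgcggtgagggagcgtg
PSMA1: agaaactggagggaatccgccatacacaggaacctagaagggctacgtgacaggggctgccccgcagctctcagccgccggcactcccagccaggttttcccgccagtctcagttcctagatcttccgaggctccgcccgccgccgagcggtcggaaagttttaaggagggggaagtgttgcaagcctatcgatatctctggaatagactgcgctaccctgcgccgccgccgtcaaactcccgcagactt
PSMA3: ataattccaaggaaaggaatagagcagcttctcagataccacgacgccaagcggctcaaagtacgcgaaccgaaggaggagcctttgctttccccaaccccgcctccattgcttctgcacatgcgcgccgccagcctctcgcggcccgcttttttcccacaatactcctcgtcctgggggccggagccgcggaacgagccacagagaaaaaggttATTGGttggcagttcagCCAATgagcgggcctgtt
PSMC5: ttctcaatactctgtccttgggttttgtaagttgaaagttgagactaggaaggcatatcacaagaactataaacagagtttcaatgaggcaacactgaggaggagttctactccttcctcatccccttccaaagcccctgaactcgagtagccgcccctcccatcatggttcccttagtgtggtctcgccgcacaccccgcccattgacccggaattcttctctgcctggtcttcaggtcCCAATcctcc
PSMB9: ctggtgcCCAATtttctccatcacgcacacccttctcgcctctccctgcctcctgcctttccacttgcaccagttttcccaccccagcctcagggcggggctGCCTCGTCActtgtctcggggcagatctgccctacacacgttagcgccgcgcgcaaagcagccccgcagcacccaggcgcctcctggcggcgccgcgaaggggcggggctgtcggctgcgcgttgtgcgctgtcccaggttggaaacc
Among these windows PSMG1 and PSMB9 held both motifs, PSMA3 held a CCAAT box on each strand, and PSMA1 held neither. A second start listed for PSMC5, at chr17:63827471-63827720, had an antioxidant response element core.

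A window was listed for 42 of the 48 genes. TGACNNNGC occurred upstream of 13 of these 42 genes (30.95%) and upstream of 13.2% of 27305 genes with a window of the same length. CCAAT occurred upstream of 19 (45.2%) and of 37.0% of all genes. Both interferon motifs were rarer. The gamma-activated site TTCNNNGAA, which reads the same on both strands, was found for 7 genes (16.7%, against 8.09% of all), and the interferon-stimulated response element GAAANNGAAA for 5 (11.9%, against 3.71%). No motif contains another, and a match of these letters is a description of the window, not of a bound factor. The background was every gene with a window, and genes of like type or windows of like base composition were not compared.

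Each value is an RPKM (reads per kilobase of transcript, scaled by the mapped reads of the library), so that levels of different genes can be compared per length. The libraries correspond to 12197606 to 13384836 reads. CDCA8 itself had 24.1 RPKM with NCsiRNA and 5.86 RPKM with CDCA8-1siRNA in Huh1, and 51.5 and 7.36 RPKM in Huh7. The hepatocyte lineage markers were present, 9 of 9 in every library. Of the markers of other cell types, PTPRC, CD3E, VWF and DCN reached at most 0.417 RPKM, CD68 and LYZ were measurable, and the fibroblast markers COL1A1 and COL3A1 were higher in Huh7. COL1A1 was at 107 and 125 RPKM in Huh7 but at 0.115 and 0.122 RPKM in Huh1. COL3A1 was at 1.89 RPKM with NCsiRNA and 4.14 RPKM with CDCA8-1siRNA in Huh7, and in Huh1 it was listed at 0 and 0.0414 RPKM. Differences are on the log2(RPKM + 1) scale, which understates the change of genes at low levels. In bulk RNA, fewer cells with a transcript and less transcript per cell cannot be told apart.

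Proteasome genes were among the abundant messages of both cell lines. The 46 genes with at least 1 RPKM in 1 or more libraries had a median level at the 95.6th percentile of all genes in both Huh1 libraries and at the 96.0th and 95.9th in Huh7 with NCsiRNA and CDCA8-1siRNA. Together they took 1.08% and 1.04% of all RPKM in Huh1 (NCsiRNA before CDCA8-1siRNA, the order used for every pair of values in what follows) and 1.18% and 1.13% in Huh7. The remaining members, PSMA8, the alpha subunit of germ cells, and PSMB11, the catalytic subunit of thymic cortex, were listed at 0 in all 4 libraries. The plot of levels by role shows that most structural subunits lay within 1 order of magnitude, with the immunoproteasome genes below them.

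**Figure D1:**
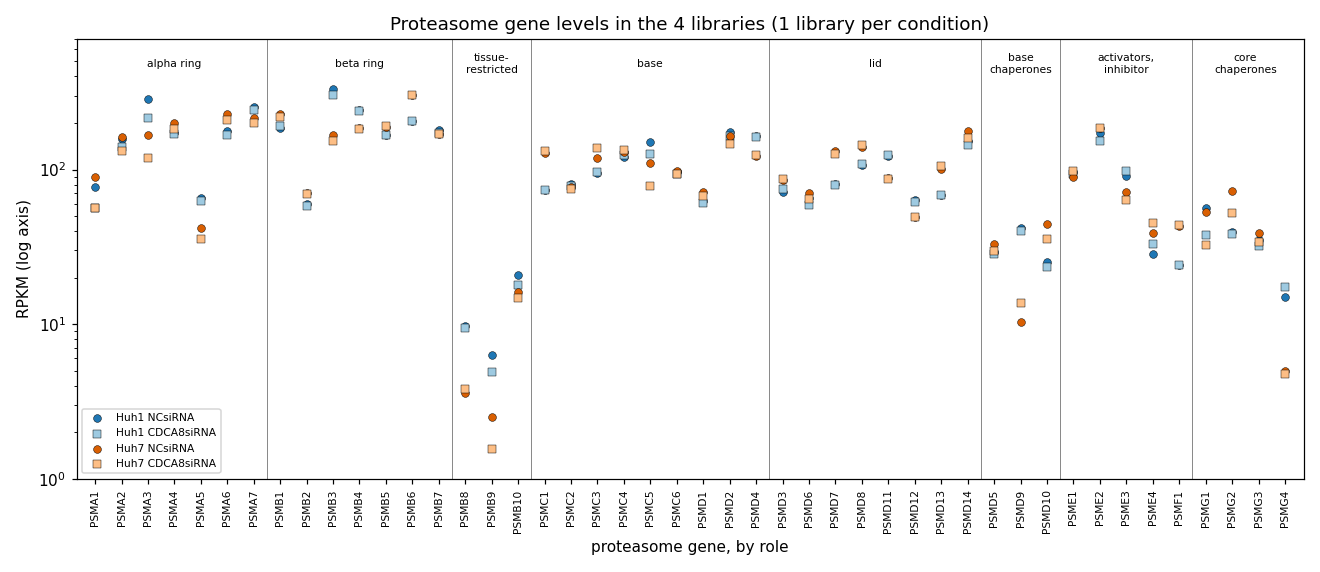
RPKM (vertical, log axis) of the 46 measured proteasome genes (horizontal, grouped by role) in each of the 4 libraries; circles are NCsiRNA and squares CDCA8-1siRNA, blue for Huh1 and orange for Huh7. Each point is 1 library, without an error bar. The immunoproteasome genes PSMB8, PSMB9 and PSMB10 lie between 1.56 and 20.7 RPKM, below every alpha and beta ring gene.

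Subunits that occur in equal number in the particle had unequal RPKM. These values depend on the length of the 1 transcript listed for each gene. In Huh1 with NCsiRNA, PSMA3 had 3714 reads on 970 bases and PSMA5 had 3287 reads on 3729 bases. Whether transcripts of another length were in use was not tested. Among the 7 measured alpha ring genes the highest gene was at 4.34 times the lowest in Huh1 with NCsiRNA (PSMA3 over PSMA5). It was 5.86 times in Huh7 with CDCA8-1siRNA (PSMA6 over PSMA5). PSMA7, the highest of them by its mean over the 4 libraries, was at 253 and 242 RPKM in Huh1 and 215 and 201 RPKM in Huh7. PSMA5 had the lowest mean, at 65.9 and 62.7 RPKM in Huh1 and 42.2 and 35.5 RPKM in Huh7, although PSMA1 was lower in Huh1 with CDCA8-1siRNA (56.6 RPKM). Thus the Huh7 libraries had less PSMA5 than either Huh1 library. In the beta ring PSMB6, a catalytic subunit with caspase-like activity, had the highest mean at 205 and 205 RPKM in Huh1 and 305 and 305 RPKM in Huh7, although PSMB3 and PSMB4 were above it in both Huh1 libraries. PSMB2, a structural beta subunit, was the lowest at 59.7 and 58.1 RPKM in Huh1 and 70.1 and 69.6 RPKM in Huh7, and PSMB6 and PSMB2 were higher in each Huh7 library than in either Huh1 library. The 9 genes of the base and the 8 of the lid were more even, the highest being 2.16 to 2.78 times the lowest in the base and 2.42 to 3.57 times in the lid.

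In the base, PSMD2, a large scaffold subunit, had the highest mean, at 174 and 166 RPKM in Huh1 and 165 and 145 RPKM in Huh7, and PSMD1, the other large scaffold, the lowest, at 62.4 and 60.7 RPKM in Huh1 and 71.8 and 67.3 RPKM in Huh7. In the lid PSMD14, the deubiquitinase that cuts the chain from the substrate, led with 154 and 144 RPKM in Huh1 and 177 and 161 RPKM in Huh7, and PSMD12 had the lowest mean with 63.7 and 61.7 RPKM in Huh1 and 49.5 and 49.5 RPKM in Huh7, although PSMD6 was lower in Huh1 with CDCA8-1siRNA (59.2 RPKM). PSMD14 was the highest lid gene in every library. The base assembly chaperones were lower than every base subunit. PSMD10 (gankyrin) was at 25.1 and 23.4 RPKM in Huh1 and 44.3 and 35.3 RPKM in Huh7 and PSMD9 at 41.9 and 39.8 RPKM in Huh1 and 10.3 and 13.7 RPKM in Huh7, so that the order of these chaperones differed between the lines. Of the activators, PSME2, which forms the interferon-inducible cap with PSME1, was at 173 and 153 RPKM in Huh1 and 186 and 187 RPKM in Huh7. PSMF1, an inhibitor of the core, had the lowest mean of that group, at 24.2 and 24.0 RPKM in Huh1 and 43.4 and 44.0 RPKM in Huh7, although PSME4 had fewer RPKM than PSMF1 in Huh7 with NCsiRNA. Among the core chaperones PSMG2 was at 39.3 and 38.0 RPKM in Huh1 and 72.4 and 52.2 RPKM in Huh7 and PSMG4 at 15.02 and 17.4 RPKM in Huh1 and 4.99 and 4.77 RPKM in Huh7.

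The comparison of CDCA8-1siRNA with NCsiRNA asks which genes moved when CDCA8 was silenced. Of the 46 genes tested, 4 were lower with CDCA8-1siRNA over both cell lines and 0 were higher (limma, adjusted p under 0.05). They were the core chaperone PSMG1, the alpha ring genes PSMA1 and PSMA3 and the base ATPase PSMC5. This is 8.70% of the members, and over all 12148 genes 2.65% were called lower and 3.74% higher. At an unadjusted p under 0.05 there were 7 of the 46 members and 2767 of the 12148 genes, a smaller share of the members than of all genes. Within a line, where no test is possible, 0 members were past 2-fold in Huh1 (0.494% of 10940 genes were) and 0 in Huh7 (1.57% of 11565).

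PSMG1 (PAC1), which pairs with PSMG2 to start the assembly of the alpha ring, was at 56.4 and 37.6 RPKM in Huh1 and 53.5 and 32.6 RPKM in Huh7. Both CDCA8-1siRNA libraries were below both NCsiRNA libraries. PSMG1 fell by 0.64 on the log2 scale (SE 0.09, adjusted p = 0.00862), to 66.7% of its NCsiRNA level in Huh1 and 60.9% in Huh7. PSMA1, an alpha ring subunit, was at 77.3 and 56.6 RPKM in Huh1 and 90.04 and 56.1 RPKM in Huh7, again with no overlap between the siRNAs, and fell by 0.56 on the log2 scale (SE 0.09, adjusted p = 0.0146). The other alpha subunit, PSMA3, was at 286 and 216 RPKM in Huh1 and 166 and 119 RPKM in Huh7. Here the groups overlapped, since Huh1 with CDCA8-1siRNA was above Huh7 with NCsiRNA, and the difference showed only within each line, where PSMA3 fell by 0.44 on the log2 scale (SE 0.08, adjusted p = 0.0157). PSMC5 (RPT6), an ATPase of the base, was at 151 and 127 RPKM in Huh1 and 109.5 and 78.8 RPKM in Huh7. It too overlapped between lines and fell by 0.36 on the log2 scale (SE 0.09, adjusted p = 0.0473).

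These calls rest on a single residual degree of freedom and on the assumption that siRNA differences alike in both lines are replicates. All of them were lost without the filter on low values (adjusted p = 0.252 for PSMG1, PSMA1 and PSMA3 and 0.28 for PSMC5), without the mean-variance trend (adjusted p from 0.0669 for PSMG1 to 0.162 for PSMC5) and without the cell line term, and PSMC5 was also lost with a pseudocount of 0.1 RPKM (adjusted p = 0.0537), the lowest adjusted p over the alternatives being 0.00208 for PSMG1, 0.00473 for PSMA1, 0.0091 for PSMA3 and 0.0297 for PSMC5. The size and sign of the 4 differences stayed within -0.66 and -0.32 under all 8 alternatives. Most hepatocyte lineage genes moved along with these members, as 7 of the 9 markers were called lower with CDCA8-1siRNA. The summed level of the 9 was 5215 and 4004 RPKM in Huh1 and 3308 and 2321 RPKM in Huh7, with ALB alone at 3447 and 2684 RPKM in Huh1. TTR and AFP were not called, and their signs differed between the lines (TTR -0.15 in Huh1 and 0.71 in Huh7, AFP 0.14 and -0.27). Of the immune markers LYZ was called higher with CDCA8-1siRNA. CD68 was not called, at 23.3 and 16.5 RPKM in Huh1 and 3.71 and 3.73 RPKM in Huh7. The summed level of the immune markers was 24.2 and 18.2 RPKM in Huh1 and 14.9 and 27.7 RPKM in Huh7. The part of these cell type markers in the result was not tested. FTSJ3, which overlaps PSMC5 on the opposite strand, was at 33.9 and 34.3 RPKM in Huh1 and 32.5 and 31.02 RPKM in Huh7 and was not called (adjusted p = 0.908).

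**Figure D2:**
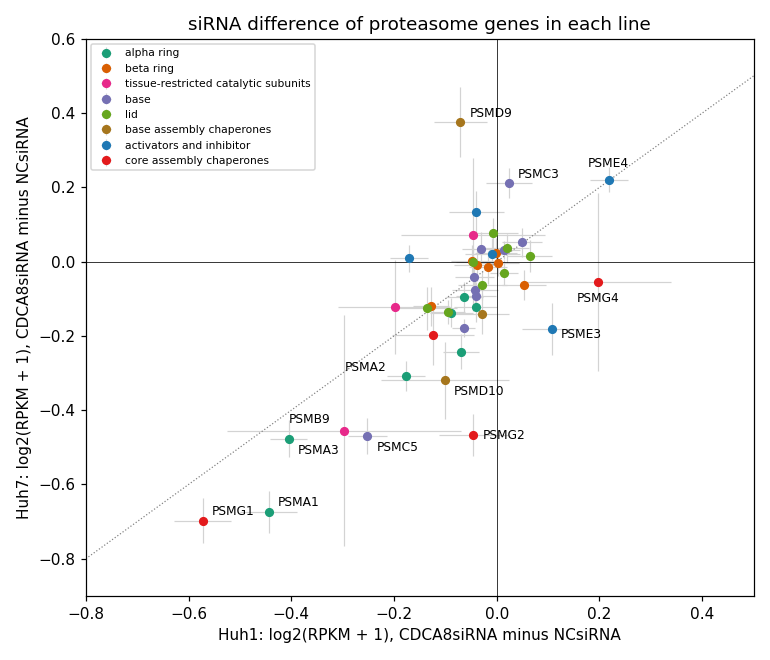
CDCA8-1siRNA minus NCsiRNA on the log2(RPKM + 1) scale in Huh1 (horizontal) and in Huh7 (vertical), 1 point for each of the 46 measured genes, colored by role, with grey bars for 1 SD of the counting of reads; the dotted line marks equal differences. PSMG1, PSMA1, PSMA3 and PSMC5 lie at the lower left and PSME4 at the upper right, while most genes are near 0.

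Many other proteasome genes differed little. In both lines the difference was under 0.1 in size for 21 of the 46 members, against 14.8% of all genes. Most members were abundant, with less counting error than genes at low levels, and genes of like level were not compared. The median difference of the members was -0.04 in Huh1 and -0.06 in Huh7, beside 0.02 and 0.03 for all genes. Of the members, 26 were lower with CDCA8-1siRNA in both lines and 6 were higher in both, while 28.5% of all genes were lower in both. The first count was 30 with upper quartile scaling (32.6% of all genes) and 23 after quantile normalization (33.9%).

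All 7 measured alpha genes had a lower value with CDCA8-1siRNA in both lines, except that PSMA7 in Huh1 was level after quantile normalization, which left 6 of 7. Only PSMA1 and PSMA3 passed the test. The differences lay between -0.44 and -0.04 in Huh1 and between -0.67 and -0.10 in Huh7, with medians of -0.09 and -0.24. PSMA2 came next, at 157 and 139 RPKM in Huh1 and 162 and 131 RPKM in Huh7 (limma difference -0.24, SE 0.08, adjusted p = 0.115). As a share of all proteasome RPKM the alpha ring took 23.8% and 22.2% in Huh1 and 22.1% and 19.9% in Huh7. The beta ring, which stacks onto it, took 27.4% and 28.2% in Huh1 and 26.3% and 27.5% in Huh7.

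None of the 7 beta ring genes was called, and 3 of them had lower values in both lines. Their differences lay between -0.13 and 0.05 in Huh1 and between -0.12 and 0.02 in Huh7. The catalytic subunits were nearly level. PSMB5, with chymotrypsin-like activity, was at 168 and 168 RPKM in Huh1 and 188 and 191 RPKM in Huh7, PSMB6 stood at 100.1% of its NCsiRNA level in Huh1 and 99.8% in Huh7, and PSMB7, with trypsin-like activity, was at 179 and 173 RPKM in Huh1 and 169 and 169 RPKM in Huh7. In the base 1 of 9 genes was called (PSMC5), with medians of -0.04 in both lines. In the lid 0 of 8 were called, with medians of -0.02. The base ATPase PSMC3 was at 95.1 and 96.7 RPKM in Huh1 and 119 and 138 RPKM in Huh7, with its larger difference in Huh7 (adjusted p = 0.459).

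Of the 4 core chaperones only PSMG1 was called. Its partner PSMG2 had similar values in Huh1 and a lower one with CDCA8-1siRNA in Huh7, the difference being -0.05 in Huh1 (counting SD 0.07) and -0.47 in Huh7 (counting SD 0.06), and limma gave an adjusted p of 0.224. Whether the lines differ in this was not tested. PSMG3 differed by -0.12 and -0.20, and PSMG4, at few reads, by 0.20 and -0.06. POMP, the chaperone that guides the beta subunits and whose symbol falls outside the rule, was at 74.1 and 76.4 RPKM in Huh1 and 105 and 99.6 RPKM in Huh7. In contrast to most members, PSME4, the nuclear activator that binds the core without ATP, had higher values with CDCA8-1siRNA in both lines, at 28.3 and 33.1 RPKM in Huh1 and 38.8 and 45.4 RPKM in Huh7. Its differences were 0.22 in Huh1 (counting SD 0.04) and 0.22 in Huh7 (counting SD 0.03), and limma gave an adjusted p of 0.193.

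Across the 46 members, Pearson's r between the difference in Huh1 and that in Huh7 was 0.757 (Spearman's rho 0.640), and 0.482 without the 4 called genes. Over all genes tested r was 0.535 (rho 0.50). That value keeps the called genes, so it is not comparable with 0.482. The 4 left out had been called for differences that were alike in both lines, which favors a lower r without them. All of these are correlations across genes of the same 4 libraries, and the genes are not independent replicates.

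The comparison of the cell lines had more calls. Of the 46 members 14 were higher in Huh7 and 15 were lower (limma, adjusted p under 0.05), or 30.4% and 32.6%, while 42.5% of all genes were called higher and 28.7% lower. The 2 libraries of a line differed in siRNA, so these calls too rest on 1 residual degree of freedom. Most of the precision was borrowed from the variances of all genes (7.48 prior degrees of freedom). The SEs do not measure the spread between cultures. For 39 of 46 members the libraries of one line did not overlap those of the other, as for 80.5% of all genes. The SD of the Huh7 minus Huh1 difference was 0.59 over the members and 1.20 over all genes. A difference of at least 1 on the log2 scale was found for 4 members and for 26.7% of all genes. Here too, genes of like level were not compared. The median of all genes was itself 0.14 above 0 and became 0.06 with upper quartile scaling and 0.00 with quantile normalization, which gave 11 members higher and 17 lower and 18 higher and 14 lower, respectively. No member called here changed direction under them. The markers differed as well, since 2 hepatocyte lineage markers were called higher and 6 lower in Huh7 (TF, one of the 6, changed sign from -0.21 to 0.06 and lost the call with quantile normalization), and the summed fibroblast markers were at 0.115 and 0.164 RPKM in Huh1 and 109 and 129.9 RPKM in Huh7. Their part in the result was not tested.

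**Figure D3:**
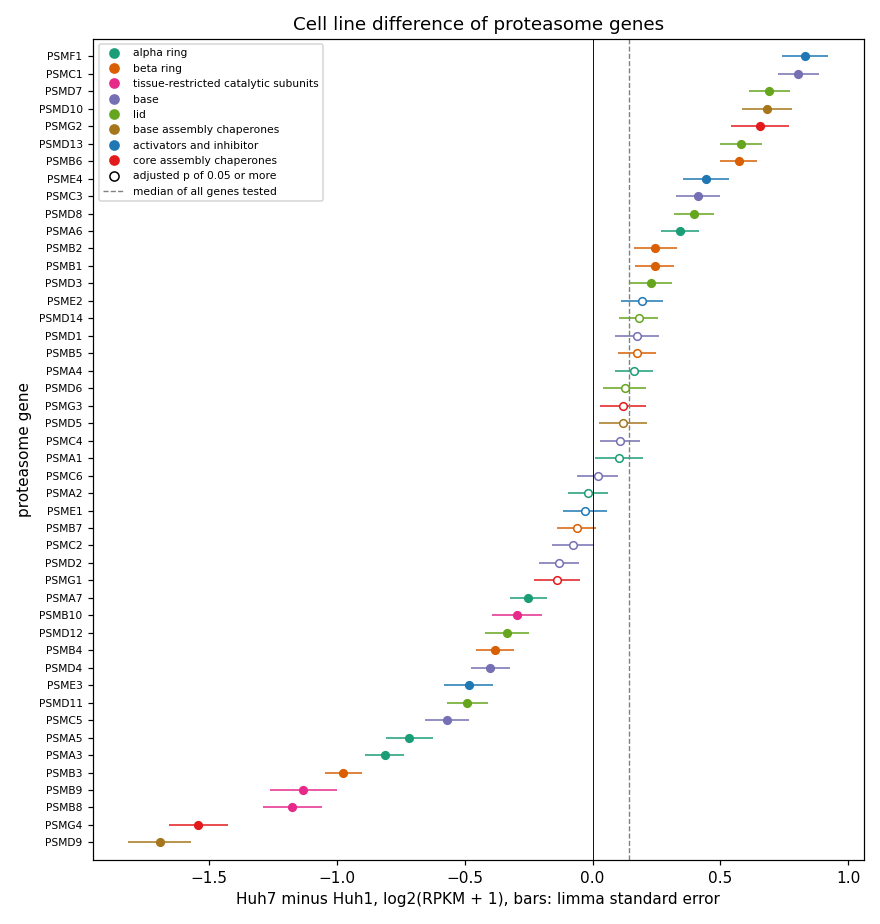
Huh7 minus Huh1 difference on the log2(RPKM + 1) scale (horizontal) for each of the 46 measured genes (vertical, sorted), from limma over 4 libraries; bars are standard errors, open circles had an adjusted p of 0.05 or more, and the dashed line is the median of all genes. PSMD9, PSMG4, PSMB8 and PSMB9 lie beyond -1, and PSMF1 and PSMC1 are the highest, near 0.8.

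Of the 10 genes with the largest lower calls in Huh7 (adjusted p from 3.94e-06 to 0.00176), PSMD9, a chaperone of the base ATPases, came first. At 41.9 and 39.8 RPKM in Huh1 against 10.3 and 13.7 RPKM in Huh7, it was 3.40 times as high in Huh1 (difference -1.70, SE 0.12). The core chaperone PSMG4, which pairs with PSMG3, was 3.32 times as high in Huh1 (difference -1.54, SE 0.12), on 168 and 192 reads in Huh1 and 51 and 49 in Huh7. TUBB2B, which overlaps PSMG4 on the opposite strand, was at 12.8 and 15.3 RPKM in Huh1 and 77.9 and 123 RPKM in Huh7, higher in Huh7, and WDR66, which overlaps PSMD9 on the same strand, at 1.32 and 2.55 RPKM in Huh1 and 2.87 and 3.78 RPKM in Huh7. Between the lines each of these genes thus differed in the direction opposite to its neighbor. For the siRNA, TUBB2B differed by 0.24 in Huh1 and 0.65 in Huh7, beside 0.20 and -0.06 for PSMG4. WDR66 differed by 0.61 and 0.30, beside -0.07 and 0.38 for PSMD9. Whether reads were shared between overlapping genes was not tested. How the strand was used in counting is not given in the sources used here.

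Structural core genes were also among the lower calls. PSMB3, a beta ring subunit, was at 330.4 and 302 RPKM in Huh1 and 167 and 154 RPKM in Huh7 (difference -0.98, SE 0.07), so that the most abundant proteasome message of Huh1 was 1.97 times as high there as in Huh7. PSMA3 and PSMA5 of the alpha ring differed by -0.81 (SE 0.08) and -0.72 (SE 0.09). PSMC5 differed by -0.57 (SE 0.09). In the lid PSMD11, a scaffold that helps to hold lid and base together, was at 123 and 124 RPKM in Huh1 and 88.6 and 86.7 RPKM in Huh7 (difference -0.49, SE 0.08). PSME3, the nuclear activator cap, was at 91.0 and 98.1 RPKM in Huh1 and 71.7 and 63.1 RPKM in Huh7 (difference -0.48, SE 0.10). Smaller lower calls were PSMD4, a ubiquitin receptor of the base (difference -0.40), PSMB4 (-0.38), PSMD12 (-0.33), PSMB10 (-0.30) and PSMA7 (-0.25).

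The 10 largest higher calls in Huh7 had adjusted p between 2.81e-05 and 0.00226 and included several parts of the regulatory particle. PSMF1, the core inhibitor, was 1.81 times as high in Huh7 (difference 0.83, SE 0.09). PSMC1, a base ATPase, was at 73.3 and 74.0 RPKM in Huh1 and 128 and 131 RPKM in Huh7 (difference 0.80, SE 0.08). It has 13 annotated pseudogenes in GENCODE, and reads shared with them could be split. PSMD7, the lid partner of PSMD14, was at 80.7 and 79.2 RPKM in Huh1 and 133 and 127 RPKM in Huh7 (difference 0.69, SE 0.08), and PSMD13 of the lid at 68.5 and 68.2 RPKM in Huh1 and 100.04 and 106 RPKM in Huh7 (difference 0.58, SE 0.08). PSMD8, also of the lid, was at 106 and 108 RPKM in Huh1 and 139.7 and 143 RPKM in Huh7 (difference 0.40, SE 0.08). The base thus had both directions, with the ATPase PSMC3 higher (0.41, SE 0.09) and PSMC5 lower. PSMD10 differed by 0.68 (SE 0.10), PSMG2 by 0.66 (SE 0.11), PSMB6 by 0.57 (SE 0.07) and PSME4 by 0.44 (SE 0.09). Smaller higher calls were PSMA6 (difference 0.34), PSMB2 (0.24), PSMB1 (0.24) and PSMD3 (0.23). PSMB1, PSMB2 and PSMD3 lost the call with upper quartile scaling and PSMA7 with quantile normalization. These 4 also lost it without the trend and with only the cell line in the model, and PSMC5 and PSMB10 with only the cell line. Conversely, 2 members not called in the main fit became called with upper quartile scaling and 4 with quantile normalization. PSMA4 was among the latter (limma, adjusted p = 0.0171).

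By role, where all genes had 42.5% higher and 28.7% lower calls, higher and lower calls were 1 and 3 of 7 in the alpha ring, 3 and 2 of 7 in the beta ring, 2 and 2 of 9 in the base and 4 and 2 of 8 in the lid. Each assembly chaperone group had 1 of each, and the activators and inhibitor had 2 and 1 of 5. The tissue-restricted catalytic subunits were 3 lower of 3. No structural role moved as 1 block between the lines.

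The immunoproteasome genes were low in both lines and lower in Huh7. PSMB8 was at 9.77 and 9.43 RPKM in Huh1 and 3.57 and 3.81 RPKM in Huh7 and was 2.60 times as high in Huh1 (difference -1.18, SE 0.12). PSMB9 was at 6.27 and 4.92 RPKM in Huh1 and 2.50 and 1.56 RPKM in Huh7 and 2.76 times as high in Huh1 (difference -1.13, SE 0.13). These levels rest on few reads, 59 to 177 per library for PSMB8 and 15 to 66 for PSMB9. The genes also overlap each other on opposite strands. PSMB10, the third inducible subunit, was at 20.7 and 17.9 RPKM in Huh1 and 16.2 and 14.8 RPKM in Huh7 with a smaller difference between the lines (-0.30, SE 0.10). Against its constitutive counterpart PSMB5, PSMB8 reached 5.82% and 5.62% in Huh1 and 1.90% and 2.00% in Huh7. PSMB9 reached 3.06% and 2.40% of PSMB6 in Huh1 and 0.820% and 0.510% in Huh7. PSMB10 was at 11.6% and 10.3% of PSMB7 in Huh1 and at 9.62% and 8.79% in Huh7. None of the 3 genes was called for the siRNA (adjusted p = 0.957 for PSMB8, 0.132 for PSMB9 and 0.387 for PSMB10).

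**Figure D4:**
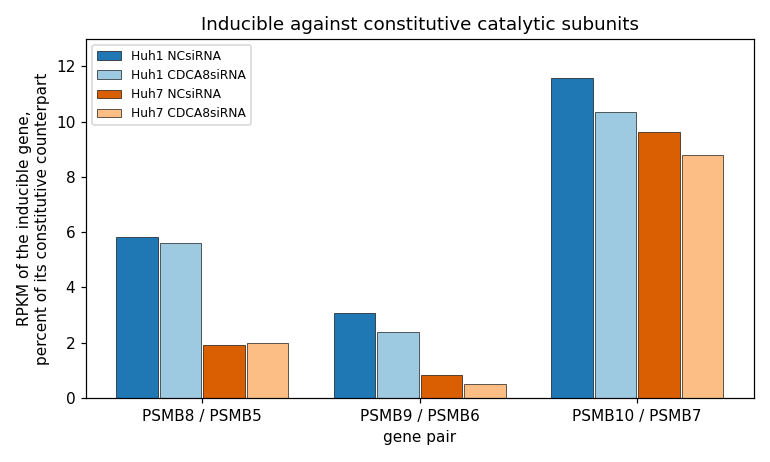
RPKM of PSMB8, PSMB9 and PSMB10 as a percent of the constitutive subunit that each replaces (vertical, from 0), 1 bar for each of the 4 libraries, without error bars. PSMB8 and PSMB9 bars are higher in both Huh1 libraries than in Huh7, and PSMB10 lies between 8.79% and 11.6% in all 4.

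PSME1 and PSME2, the interferon-inducible cap that shares its regulation with the immunoproteasome, were not called between the lines. PSME1 was at 96.5 and 93.8 RPKM in Huh1 and 88.9 and 97.6 RPKM in Huh7 (line difference -0.03, adjusted p = 0.766) and PSME2 differed between lines by 0.19 (adjusted p = 0.0586). The other genes of class I antigen presentation were mixed. Of 6 tested, TAP2, a subunit of the peptide transporter, was lower in Huh7 at 14.2 and 14.5 RPKM in Huh1 and 7.07 and 8.33 RPKM in Huh7 (difference -0.82, SE 0.11), TAP1, the other subunit, was lower at 7.39 and 8.90 RPKM in Huh1 and 5.72 and 7.06 RPKM in Huh7 (difference -0.31, SE 0.11), and TAPBP, which bridges the transporter and class I molecules, was higher at 20.2 and 20.4 RPKM in Huh1 and 25.2 and 36.8 RPKM in Huh7 (difference 0.56, SE 0.13). ERAP1, B2M and IRF1 did not pass the test, and NLRC5, the class I transactivator, stayed under 1 RPKM. The call of TAP1 was lost without the filter on low values, and those of TAP1 and TAPBP with only the cell line in the model.

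The genes that control or feed the proteasome had 0 calls for the siRNA in each of 5 lists, of 11, 7, 7, 3 and 6 genes tested. Over all genes 3.74% were called higher and 2.65% lower, so lists this small would hold few calls at those shares. Among the subunits and partners with other symbols, SHFM1 (DSS1), a small lid subunit, was at 304 and 291 RPKM in Huh1 and 191 and 203 RPKM in Huh7, lower in Huh7 (difference -0.59, SE 0.08). The deubiquitinase UCHL5 was higher (0.92, SE 0.11), as were PAAF1 (0.80, SE 0.13), POMP (0.44, SE 0.08) and USP14 (0.25, SE 0.09). AKIRIN2, which brings proteasomes into the nucleus, was lower (-0.64, SE 0.10), and so were TXNL1, KIAA0368 (ECPAS) and ZFAND5 (differences -0.26, -0.24 and -0.23). The calls of TXNL1, KIAA0368, ZFAND5 and USP14 were lost without the trend and with only the cell line in the model, that of KIAA0368 also without the filter and that of USP14 also with both scalings. ADRM1, a ubiquitin receptor, and UBE3C were not called.

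Of the genes of transcriptional control, NFE2L1 was at 31.8 and 35.7 RPKM in Huh1 and 41.6 and 50.7 RPKM in Huh7, higher in Huh7 (difference 0.44, SE 0.09), and NGLY1, the glycanase that NFE2L1 needs for its activation, was also higher (0.53, SE 0.10). NFE2L2 was lower in Huh7 (-0.44, SE 0.08). Small MAF partners went both ways, MAFK (1.09, SE 0.10) and MAFF (1.07, SE 0.17) being higher and MAFG lower (-1.68, SE 0.12), and DDI2, the protease that cuts NFE2L1, was not called. For the siRNA, MAFK had the lowest adjusted p of this list (0.0512), with 11.7 and 16.0 RPKM in Huh1 and 26.6 and 34.6 RPKM in Huh7.

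Shuttle factors carry ubiquitin-tagged proteins to the proteasome. Together with the segregase VCP and its cofactors they had 3 higher calls of 7 in Huh7, a share near the 42.5% of all genes, and 0 lower. UFD1L, a cofactor of the segregase VCP, was at 39.4 and 37.9 RPKM in Huh1 and 198 and 189 RPKM in Huh7 (difference 2.29, SE 0.08), a larger difference than that of any proteasome subunit. RAD23B (0.40, SE 0.08) and UBQLN4 (0.24, SE 0.09) were the others. Among the ubiquitin genes RPS27A (-0.31, SE 0.06) and the activating enzyme UBA1 (-0.42, SE 0.08) were lower in Huh7, and UBB was not called. UBQLN4 lost the call with both scalings, without the filter, without the trend and with only the cell line in the model, and RPS27A with quantile normalization, while no called gene of the 5 lists changed direction.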

How the data were processed

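Total RNA of Huh1 and Huh7 cells had been sequenced with the Illumina TruSeq RNA kit, 1 library for each of 4 conditions. The siRNA dose, time and variant (CDCA8-1) were taken from the methods of the study, and the groups (cell line and siRNA target) from the labels. The submitters' processing notes name CASAVA 1.8.2, TopHat2 2.0.9 and hg19, while the counting step, its annotation and its use of strand are not given in the sources used here. The authors deposited 1 RPKM value per RefSeq transcript and did not state the unit, which was inferred because value times transcript length falls on whole multiples of 1 constant per library. Lengths came from GENCODE 29, matched for 46 members by RefSeq identifier and for 2 by symbol, and reads per gene and counting SDs were derived from them. These SDs cover counting error only.

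Differences were computed on log2(RPKM + 1). In R 4.3.3, limma 3.58.1 (lmFit, eBayes with trend) was fitted to all 4 libraries with cell line and siRNA as terms, leaving 1 residual degree of freedom, over 12148 genes with at least 1 RPKM in 1 or more libraries. Calls had a Benjamini-Hochberg adjusted p under 0.05. The steps were tested on simulated data. The members, role lists, pathway lists and markers were chosen with earlier results of these data known. Values in all libraries are given for PSMB5 to PSMB10, members called by limma (up to 10 per direction) and the highest and lowest gene of each role. PECAM1 was not analysed here. Some genes of the pathway and marker lists are not reported here and are left out of the counts of their lists. Alternatives were a pseudocount of 0.1 RPKM, no filter, a minimum of 5 RPKM, at least 1 RPKM in each line, upper quartile scaling, quantile normalization, no trend and only the compared term. Promoter windows came from RefSeq tables on GRCh38.p14 and were not used with coordinates of the files. Python 3.11.15 with pandas 2.3.3 was used for the rest.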

Additional observations from a re-analysis of the deposited data

Results flagged for a closer look

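For 14 of the 46 measured proteasome genes the difference between CDCA8-1siRNA and NCsiRNA had opposite signs in the 2 cell lines, and for 4 of them the gap between the lines was larger than 2 SD of the counting of reads. This difference between the lines was not tested, since each condition had 1 library and the counting SD holds no variation between cultures. PSMD9, the base assembly chaperone, had a difference of -0.07 in Huh1 and 0.38 in Huh7 on the log2(RPKM + 1) scale, a gap of 0.447 (counting SD 0.107). WDR66, which overlaps PSMD9 on the same strand, had 0.61 and 0.30. The activators made up the other 3. PSME3 had 0.11 in Huh1 and -0.18 in Huh7, a gap of -0.289 (counting SD 0.0905). PSME2 had -0.17 and 0.01, a gap of 0.180 (counting SD 0.0514). Its partner in the interferon-inducible cap, PSME1, had -0.04 and 0.13, a gap of 0.173 (counting SD 0.0774). Whatever the sign, 11 members had a gap over 2 counting SD, these 4 included. Among the 11, PSMG2 had a gap of -0.421 (counting SD 0.0882), PSMA1 of -0.230 (counting SD 0.0791) and PSMC5 of -0.217 (counting SD 0.0610). PSMG2, PSMA1 and PSMC5 were lower with CDCA8-1siRNA in both lines, and more so in Huh7. These counts were not made over all genes.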

How the results depend on the processing

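The main count was 4 proteasome genes lower with CDCA8-1siRNA. It became 0 without a filter on low values, 0 without the trend and 0 with only the siRNA in the model. In that order, limma called 0, 45 and 0 of all genes. An unadjusted p under 0.05 was given to 6, 5 and 1 members, beside 2440 of 17039, 2490 of 12148 and 75 of 12148 genes tested. The count of lower proteasome genes was 3 with a pseudocount of 0.1 RPKM and 4 under the other 4 alternatives. The count of 29 members that differed between the lines ranged from 23 to 32. No called proteasome gene reversed, while 10 uncalled differences of proteasome genes changed sign under a scaling. No member passed 2-fold within a line under any alternative tried there. The cell line term already pairs the siRNAs within each line. No further pairing was possible, because the labels give no replicate numbers to pair by. With 1 library per condition, leaving out a library leaves no residual degree of freedom and was not run.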
